A study of Mus musculus with 4 samples.

Results

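The Mycl stretch of mouse chromosome 4 was taken as the span chr4:122600000-123600000 of build mm10, and its members are the ATAC-seq peaks of 4 tumor cell lines that lie in it. It held 542 of the 489558 peaks that the 4 lists had on chromosomes 1 to 19, X and Y. These were 231 peaks in SMC#1, 184 in SMC#2, 61 in Non-SMC#1 and 66 in Non-SMC#2. The span was chosen by the peak density and local background of these same lists, which stood out there. Peak density, background, fold enrichment and the edges are therefore described below without a test.

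ATAC-seq cuts open DNA with a transposase, so a peak marks a site where the enzyme entered more often than in its surroundings. All 4 lines came from lung tumors of the Rb1L/L Trp53L/L mouse, in which Cre adenovirus deletes both tumor suppressor genes, so SMC and non-SMC lines share these deletions and a mixed C57Bl/6, Balb-c and S129 background. SMC lines (small cell lung cancer metastasizing cells) were sorted as NCAMhi CD44lo/- cells and non-SMC lines as NCAMlo CD44hi cells, and both were cultured untreated. The virus was given into the airway of young adult mice and carried Cre under the CMV promoter, which is active in many cell types, so the cell of origin is not fixed by it. There are 2 lines of each type with 1 library per line, and the labels call the types paired without naming the animals. The spread between lines of a type may therefore be technical, and 2 against 2 libraries could not reach an exact two-sided permutation p below 0.333.

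Mycl encodes L-MYC, a member of the MYC family of transcription factors, which bind DNA as a pair with MAX at E-box sequences and drive growth programs. It was first found as a gene with extra copies in small cell lung cancer, and it is active in neuroendocrine tumors of this kind. In ATAC-seq a segment with more copies of DNA gives more reads over its whole length, between the open sites as well as on them. From peak lists alone, more copies of DNA and a more open stretch of chromatin cannot be told apart.

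The labels were checked on promoter peaks of marker genes, with a promoter taken as 6 kb centered on the annotated start. Of 5 neuroendocrine genes (Ncam1, Insm1, Chga, Syp and Neurod1), 4 and 5 had a peak in SMC lines 1 and 2, against 4 and 3 in non-SMC lines 1 and 2. The count did not separate the types, and their heights did so only in part. Height is used throughout for the reads piled up at a peak's summit over the lowest background of its list. Chga, a protein of secretory granules, had heights of 35.1 and 16.3 in the SMC lines and no peak in the non-SMC lines, and Insm1 and Syp were also higher in both SMC lines. Ncam1, which encodes the sorted surface protein, had 26.3, 15.0, 24.9 and 21.9 in the order SMC#1, SMC#2, Non-SMC#1 and Non-SMC#2, so the types overlapped. Neurod1 had no peak in SMC#1 and 23.4, 4.71 and 7.83 in the other lines. Of 4 mesenchymal genes (Cd44, Vim, Wwtr1 and Yap1), 1, 4, 4 and 4 had a peak, and their peaks were low in SMC lines, at a height of 4.55 to 8.77, and high in non-SMC lines, at 23.5 to 57.9. Of 4 genes of other cells a tumor could hold (Ptprc, Pecam1, Col1a1 and Sftpc), 2, 1, 3 and 2 had a peak. The lists differed in length, from 91057 peaks in SMC#1 to 153954 in SMC#2, and read depth is not given in the lists. Most summaries over the members are therefore set against the rest of the same list. Heights at single sites are scaled only by the lowest background of their list. The median height on the rest of the lists was 11.0 in SMC#1, 5.20 in SMC#2, 6.73 in Non-SMC#1 and 7.83 in Non-SMC#2.

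The sequences below, read from the mm10 assembly, show the places on which the description turns. The promoter of Trit1 runs from 250 bases before the annotated start to 29 after it, with the start base in capitals. The other entries are 201 bases around a peak summit on the plus strand. They are the intron site of Trit1 with the highest fold enrichment of the stretch in SMC#1, the outermost raised peaks of SMC#2, which bound the span raised in both SMC lines, and the Ppt1 site with the highest fold enrichment in a non-SMC line. Further capitals mark TGACTCA (AP-1), GGAATG (the core bound by TEAD factors), CACGTG (the E-box of MYC and MAX) or CAGCTG (another E-box), searched on both strands.
Trit1 promoter, chr4:123016347-123016626, plus strand: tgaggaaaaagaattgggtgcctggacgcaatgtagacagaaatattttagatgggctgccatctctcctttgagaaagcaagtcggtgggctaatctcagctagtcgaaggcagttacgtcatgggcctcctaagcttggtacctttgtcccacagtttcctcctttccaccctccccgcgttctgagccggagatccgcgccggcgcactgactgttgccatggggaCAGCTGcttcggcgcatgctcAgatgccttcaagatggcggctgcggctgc
Trit1 intron peak, chr4:123050994-123051194: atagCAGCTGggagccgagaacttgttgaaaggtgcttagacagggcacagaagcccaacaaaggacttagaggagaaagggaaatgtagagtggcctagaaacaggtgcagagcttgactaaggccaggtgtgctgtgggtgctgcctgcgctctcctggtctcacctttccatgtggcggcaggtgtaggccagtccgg
SMC#2 left edge, intergenic, chr4:122985152-122985352: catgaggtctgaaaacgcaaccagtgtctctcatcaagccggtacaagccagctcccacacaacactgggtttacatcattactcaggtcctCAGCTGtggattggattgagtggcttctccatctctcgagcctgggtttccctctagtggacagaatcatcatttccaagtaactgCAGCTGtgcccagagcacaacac
SMC#2 right edge, intron of Nt5c1a, chr4:123207284-123207484: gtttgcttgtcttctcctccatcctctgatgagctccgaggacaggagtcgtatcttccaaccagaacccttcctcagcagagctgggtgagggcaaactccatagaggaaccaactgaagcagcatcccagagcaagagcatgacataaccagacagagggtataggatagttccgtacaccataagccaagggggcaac
Ppt1 site, chr4:122838510-122838710: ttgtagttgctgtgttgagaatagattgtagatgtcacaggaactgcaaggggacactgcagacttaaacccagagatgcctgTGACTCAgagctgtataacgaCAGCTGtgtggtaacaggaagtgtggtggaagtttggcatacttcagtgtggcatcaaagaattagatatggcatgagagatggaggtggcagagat
The Trit1 promoter held CAGCTG, the left edge peak of SMC#2 held CAGCTG at 2 places, and the Ppt1 site held TGACTCA and CAGCTG. Of 21938 protein-coding promoters of the same length, 14.1% held CAGCTG, 12.7% GGAATG, 7.39% CACGTG and 4.38% TGACTCA. A match is a description of the letters and not a bound site.

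SMC#1 had 231 peaks per Mb in the stretch against 33.3 per Mb on the rest of its list, a ratio of 6.93. The same ratio was 3.26 in SMC#2 (184 against 56.4 peaks per Mb), 1.44 in Non-SMC#1 (61 against 42.5) and 1.4 in Non-SMC#2 (66 against 47.2). Both SMC lines were denser than both non-SMC lines, and SMC#1 was the densest. Of 2737 windows of 1 Mb over the genome, 0 had more peaks than the stretch in SMC#1, 9 in SMC#2, 773 in Non-SMC#1 and 839 in Non-SMC#2. The fullest of these windows held 195, 258, 160 and 145 peaks. The windows were fixed from the first base of each chromosome, while the stretch was chosen for its density. Its rank therefore follows in part from that choice and does not measure how unusual it is. On the log2 scale the relative density was 2.25 ± 0.769 (SD, n = 2) over the SMC lines and 0.50 ± 0.0271 (SD, n = 2) over the non-SMC lines. The difference was 1.75, and the pooled SD between lines of a type was 0.544. It was 2.27 between the lines numbered 1 and 1.22 between the lines numbered 2. The span was chosen by these values, so the SD describes the spread and does not test the difference. Against the rest of chromosome 4 in place of the rest of the genome the ratios were 5.92, 3.20, 1.70 and 1.74.

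The extra peaks did not fill the whole Mb. The plot of peaks per window shows a block of high windows in each SMC line with ordinary windows on both sides. In SMC#1 the 50 kb windows inside the block held 16 to 24 peaks, apart from the last, which the block only partly fills. The windows of SMC#2 reached 34 peaks around Bmp8b and Ppie. In the non-SMC lines no 50 kb window held more than 9 peaks. The left end of the stretch, before the block of SMC#1, was almost empty in all 4 lists, with 2, 2, 0 and 4 peaks over 214 kb, and the preceding 1 Mb held 2, 2, 2 and 8 peaks.

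**Figure D1:**
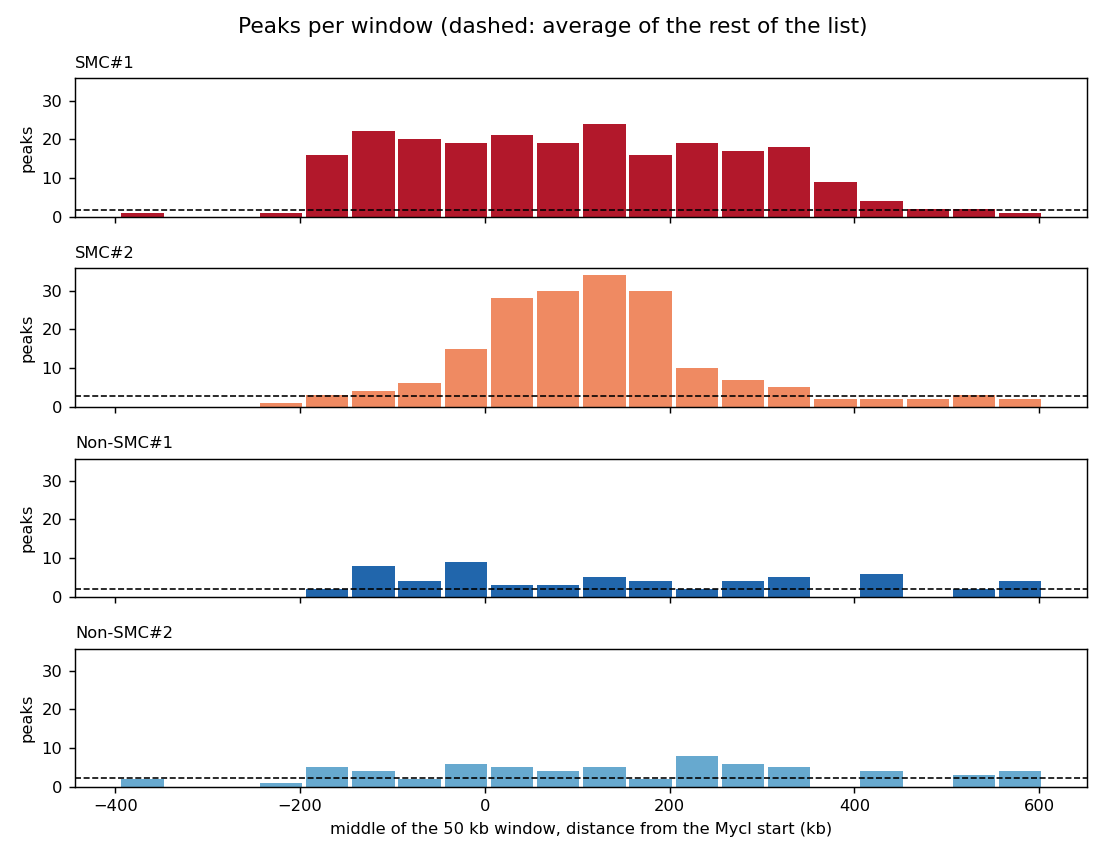
Number of peaks in each 50 kb window of the stretch (y axis) by the distance of the window's middle from the Mycl start in kb (x axis), with 1 panel per library; the dashed line is the average of the rest of that list. SMC#1 has a broad block of high windows, SMC#2 a narrower block inside it with a highest window of 34 peaks, and no window of the non-SMC lines holds more than 9.

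The local background of a peak is the number of reads that the peak caller, MACS2, expected at that place from the reads around it. For each peak it was solved from its p-value and fold enrichment and divided by the lowest background of the list, which gives 1 where the surroundings are at the floor of the library. The median of this background ratio over the members was 34.9 in SMC#1 and 28.2 in SMC#2. It was 1.2 in Non-SMC#1 and 1.11 in Non-SMC#2. The medians of the rest of the lists were 1.34, 1.09, 1.17 and 1.09, so the non-SMC lines sat at their usual level and the SMC lines far above it. On the log2 scale the means were 4.97 ± 0.215 (SD, n = 2) over the SMC lines and 0.21 ± 0.0756 (SD, n = 2) over the non-SMC lines. The difference was 4.76, 27.2-fold, and the pooled SD between lines was 0.161, which is again a description of values that chose the span.

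A peak was called raised where its background ratio was at least 5. This held for 220 of the 231 members in SMC#1, beside 1.03% of all peaks of that list, and for 138 of the 184 members in SMC#2, beside 0.373%. It held for 0 of 61 members in Non-SMC#1 (1.34% of the list) and 0 of 66 in Non-SMC#2 (0.462%). The stretch, which was chosen for this, held 23.6% of the raised peaks of SMC#1 and 24% of those of SMC#2. The threshold fell in a wide gap. The lowest raised and highest other ratios were 10.7 and 2.27 in SMC#1 and 21.6 and 2.29 in SMC#2, and the highest ratios of the non-SMC lines were 3.50 and 3.57, both at Cap1.

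**Figure D2:**
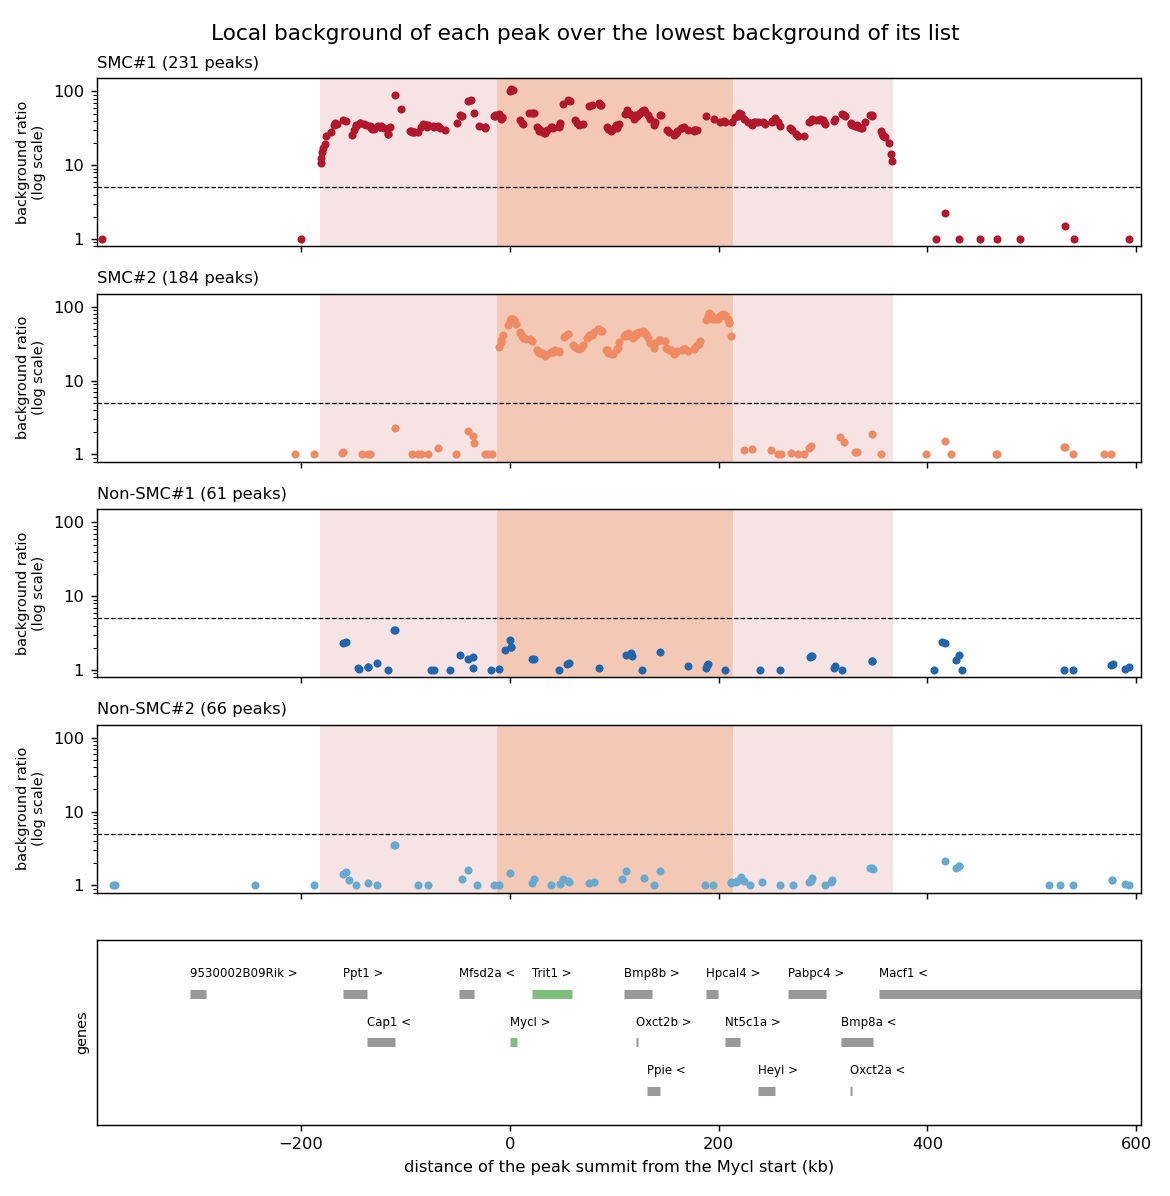
Background ratio of every peak of the stretch (y axis, log scale) by the distance of its summit from the Mycl start in kb (x axis), with 1 panel per library, genes below with their direction of transcription, the raised span of SMC#1 in pale and of SMC#2 in darker shading, and the threshold of 5 dashed. In both SMC lines the raised peaks form a single unbroken run over Mycl and Trit1, and no peak of the non-SMC lines reaches the threshold.

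The raised peaks formed a single run in each SMC line, with 0 peaks below the threshold inside it. In SMC#1 the run went from 122814459 to 123361678, 547 kb, and began 21.8 kb before the start of Ppt1 and ended in the Macf1 gene, 18.4 kb from the start of Bmp8a. In SMC#2 it went from 122984516 to 123208201, 224 kb, and began 11.1 kb before the start of Mycl and ended in an intron of Nt5c1a, 6.70 kb after its start. The run of SMC#2 lay wholly inside that of SMC#1. The left edges were 170 kb apart and the right edges 153 kb apart, so the runs shared neither end.

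The span raised in both lines held the starts of Mycl, Trit1, Bmp8b, Oxct2b, Ppie, Hpcal4 and Nt5c1a. Mycl was the first gene inside its left edge. The starts of Ppt1, Cap1 and Mfsd2a on the left and of Heyl, Pabpc4, Oxct2a and Bmp8a on the right were inside the run of SMC#1 and outside that of SMC#2. The start of 9530002B09Rik lay outside both runs, and Macf1 was cut by the right edge of SMC#1 with its own start beyond the stretch.

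The step at each edge lay between neighboring peaks. At the left edge of SMC#2 the last peak outside had a ratio of 1.02 and the first peak inside, 6.00 kb further on, a ratio of 28.8. At its right edge the ratio fell from 40.6 to 1.14 across a gap of 11.8 kb. At the left edge of SMC#1 the ratio went from 1.00 to 10.7 across a gap of 19.1 kb, and at the right edge from 11.3 to 1.00 across a gap of 42.5 kb. The gaps without a peak set how closely each edge can be placed.

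Inside each edge the ratio climbed over several kb. From the left edge of SMC#1 it rose from 10.7 through 12.6, 15.2, 17.1, 19.5, 24.7 and 28.1 to 34.7 at 12.4 kb into the run. From the left edge of SMC#2 it rose from 28.8 through 33.3, 35.8, 41.3 and 56.3 to 63.4 at 10.3 kb, where the Mycl promoter lies. MACS2 takes the local background over a window around the peak, which at an edge also covers ground outside the run; its part in the climb was not tested. The fold enrichment at the left edge of SMC#2 went the other way, from 4.69 through 2.81, 2.14 and 1.60 to 1.36 before the Mycl promoter. The right edge of SMC#2 was marked by a broad peak of 1885 bases, printed in its middle part above.

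**Figure D3:**
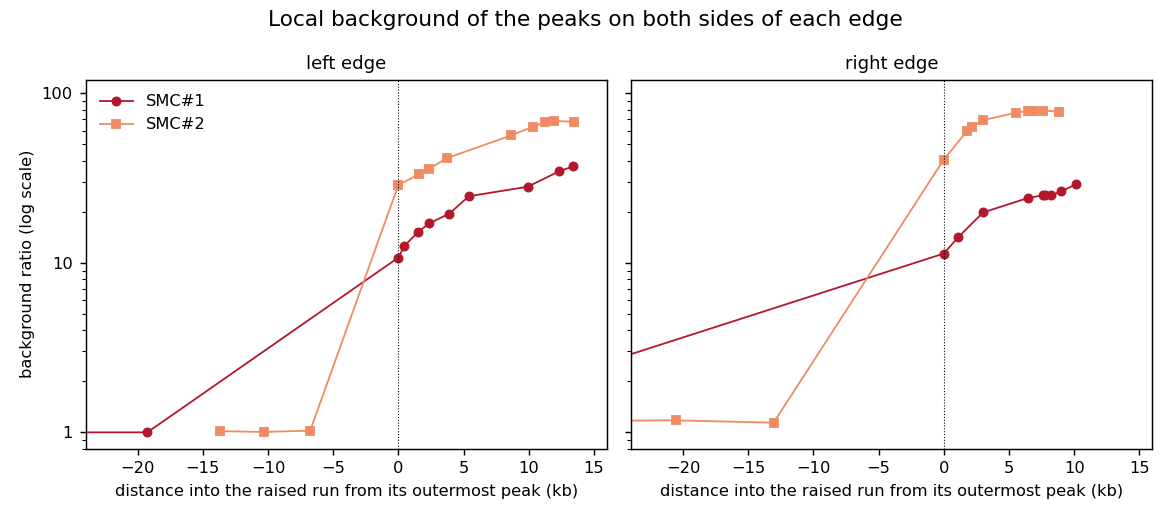
Background ratio (y axis, log scale) of the peaks next to the left and right edge of the raised run in SMC#1 (circles) and SMC#2 (squares), by the distance of the summit into the run from its outermost peak in kb (x axis; negative values lie outside the run). Each line steps up from a ratio near 1 outside to at least 10.7 at the edge and climbs further inside; the next peak beyond the right edge of SMC#1 lies off the axis.

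The level inside the runs was uneven. The highest ratio in SMC#1, 107, belonged to a peak 1.60 kb after the Mycl start. The median ratio of the peaks with their summit in the Mycl gene was 105 in SMC#1 and 67.5 in SMC#2, with 2.07 in Non-SMC#1 and no such peak in Non-SMC#2. The neighboring Trit1 gene, which encodes a tRNA-modifying enzyme, had medians of 32.7 and 24.7 in SMC lines 1 and 2 and of 1.22 and 1.12 in the non-SMC lines. The local background includes reads of the peaks themselves, and their part in these values was not tested.

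SMC#2 had a further step at Hpcal4, a neuronal calcium sensor gene. This split was chosen after its values were seen. From the left edge to the Hpcal4 start, its 117 peaks had ratios of 21.6 to 68.6 with a median of 34.2. From the Hpcal4 start to the right edge, over 25.8 kb, its 21 peaks had ratios of 40.6 to 82.3 with a median of 72.5, and the highest, 82.3, lay in a Hpcal4 intron. SMC#1 had 5 peaks in the same part with ratios of 38.2 to 46.3, close to its median of 37.0 before it. The later part was thus the higher one in SMC#2 and was level with the rest in SMC#1.

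The members of the SMC lines stood on a high background, were tall and had a low median fold enrichment. Height is the background ratio times the reads over background, so raised peaks are tall by definition. The median height of the members was 74.5 in SMC#1 and 53.3 in SMC#2, against 11.0 and 5.20 on the rest of their lists. It was 7.40 and 6.26 in the non-SMC lines, against 6.73 and 7.83. The median fold enrichment over the local background was 2.07 in SMC#1 and 1.79 in SMC#2, against 3.43 and 3.14 on the rest. It was 4.13 and 3.02 in the non-SMC lines, against 3.62 and 3.13. On the log2 scale the fold enrichment relative to the rest was -0.77 ± 0.0621 (SD, n = 2) over the SMC lines and 0.07 ± 0.172 (SD, n = 2) over the non-SMC lines. The difference was -0.84, and the pooled SD between lines was 0.130. MACS2 adds 1 to the reads of a peak and to its background before it divides them, which lowers the fold enrichment most where reads are few. Without this 1, reads over background had a median of 2.16, 1.81, 5.46 and 6.00 over the members of SMC#1, SMC#2, Non-SMC#1 and Non-SMC#2, against 7.49, 4.23, 5.18 and 6.26 on the rest, so the members of the SMC lines were low by this ratio as well.

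Many members of the SMC lines would be among the weakest peaks of their lists by fold enrichment. Below the 5th percentile of the list lay 163 of 231 members in SMC#1, 120 of 184 in SMC#2, 3 of 61 in Non-SMC#1 and 5 of 66 in Non-SMC#2. The lowest fold enrichment called in the stretch was 1.48 and 1.27 in the SMC lines and 2.16 and 2.21 in the non-SMC lines. At a given p-value the fold enrichment needed falls as the background rises. In SMC#1 a member with 3 reads at the lowest background had 2.75, already at percentile 19.7 of the list. These counts are thus not separate from the background by which the stretch was chosen. Members with a −log10 q of at least 5 numbered 36, 48, 26 and 16, which is 15.6%, 26.1%, 42.6% and 24.2% of the members beside 14.3%, 17.1%, 38.0% and 19.5% of the lists. Most members of the SMC lines were thus low in fold enrichment but not in significance. The median −log10 q of the members was 1.73, 2.35, 3.63 and 0.92, against 1.23, 1.28, 2.93 and 1.13 on the rest. Median widths were 188, 219.5, 278 and 231 bases, against 180, 178, 246 and 203 on the rest of the lists.

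In the span raised in both lines, SMC#2 had 138 peaks and SMC#1 had 90, with 21 and 20 in the non-SMC lines. Peaks covered 23.8% of this span in SMC#2 and 13.4% in SMC#1, against 3.11% and 2.53% in the non-SMC lines. In the left part raised in SMC#1 alone it had 69 peaks, against 18 in SMC#2, 18 in Non-SMC#1 and 14 in Non-SMC#2. In the right part it had 61, against 16, 10 and 17. SMC#2 was therefore close to the non-SMC lines wherever its own background was not raised. To the right of both runs the 4 lists had 9, 10, 12 and 11 peaks over 238 kb.

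Promoter peaks were counted for the 15 genes that start in the stretch. A promoter peak was present for 14 genes in SMC#1, 13 in SMC#2, 11 in Non-SMC#1 and 9 in Non-SMC#2, beside 62.2%, 69.3%, 64.6% and 64.9% of all protein-coding genes. It was present in all 4 lines for 9 genes (Ppt1, Cap1, Mfsd2a, Mycl, Trit1, Bmp8b, Ppie, Hpcal4 and Bmp8a), beside 48.7% of all protein-coding genes. The lines need not share a site within a promoter, and at Mfsd2a and Bmp8b no promoter site had a peak in all 4 lines. It was present for 3 genes in SMC#1 and SMC#2 but in no non-SMC line, Oxct2b, Oxct2a and Pabpc4, beside 3.08% of all genes, and for 0 genes in the opposite pattern, beside 2.45%. At Oxct2a and Pabpc4 the promoter peaks of SMC#1 and SMC#2 did not overlap. The best Oxct2a peak lay 51 bases before the start in SMC#1 and 2222 bases before it in SMC#2. The best Pabpc4 peak lay 1786 and 2775 bases after the start. The promoter of 9530002B09Rik had no peak in any of the 4 lists. Oxct2a and Oxct2b, and Bmp8a and Bmp8b, are close paralogs, and how reads with several equal sites were treated is not given in the sources used here.

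At the Mycl start the SMC lines were far taller than the non-SMC lines with a similar fold enrichment. The peak over the start had a height of 561 in SMC#1, 214 in SMC#2, 12.8 in Non-SMC#1 and 12.5 in Non-SMC#2. Its fold enrichment was 5.38, 3.35, 4.13 and 4.62 in the same order, so the SMC lines lay on both sides of the non-SMC lines. Without the added 1 the ratios were 5.47, 3.37, 4.95 and 8.46, which placed Non-SMC#2 highest. Its background ratio was 103, 63.4, 2.58 and 1.48. The Mycl start was thus open in all 4 lines, and the height differed between the types where the fold enrichment did not separate them. The promoter windows of Mycl held 3, 4, 3 and 1 peaks.

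Trit1 showed the same pattern at its start. Its heights were 379 and 190 in SMC lines 1 and 2 and 14.8 and 15.7 in non-SMC lines 1 and 2. Its fold enrichments were 7.24, 5.47, 7.47 and 6.52, which placed Non-SMC#1 highest. Ppie, which encodes a cyclophilin that helps proteins fold, had heights of 355, 164, 22.9 and 25 and fold enrichments of 7.23, 4.58, 9.75 and 8.51, lower in both SMC lines than in both non-SMC lines. Hpcal4 had heights of 250, 268, 4.04 and 7.83 and fold enrichments of 5.20, 4.03, 2.73 and 3.66, higher in both SMC lines. Without the added 1 the Hpcal4 ratios were 5.40, 4.06, 3.83 and 7.83, so that Non-SMC#2 was highest and the order of the types was not kept. For Trit1 and Ppie, both SMC lines were below both non-SMC lines without it, at 7.51, 5.56, 10.6 and 14.5 for Trit1 and 7.52, 4.64, 13.1 and 16 for Ppie. These 3 genes and Mycl lie in the span raised in both SMC lines.

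Genes raised in SMC#1 alone showed its height apart from the other 3 lines. Cap1, which encodes a protein of actin turnover, had a promoter height of 978 in SMC#1, against 28.6 in SMC#2, 43.7 in Non-SMC#1 and 39.1 in Non-SMC#2. Its fold enrichments were 10.7, 9.94, 10.7 and 7.94, and without the added 1 they were 10.9, 12.5, 12.5 and 11.0. Ppt1, a lysosomal enzyme that removes fatty acids from proteins, had heights of 300 in SMC#1, 7.80 in SMC#2, 12.8 in Non-SMC#1 and 17.2 in Non-SMC#2 over its start. Bmp8a, a ligand of the bone morphogenetic protein family, had heights of 121, 11.1, 6.06 and 17.2. In each of these genes SMC#2 ranked with the non-SMC lines.

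Promoters at the weak end had few reads above their background. Oxct2b, an enzyme of ketone body use, had best fold enrichments of 2.3 and 2.19 in SMC lines 1 and 2 on ratios of 42.6 and 42.0. Its paralog Oxct2a had 2.76 and 2.62 on ratios of 35.2 and 1.09. Pabpc4, a poly(A)-binding protein gene, had 2.13 and 3.46 on ratios of 31.8 and 1.04. All 3 best peaks of SMC#1 were thus low in fold enrichment on a raised background. Heyl, a repressor downstream of Notch, had a promoter peak in SMC#1 with a fold enrichment of 2.14 and in Non-SMC#1 with 2.82, and in neither line numbered 2.

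A comparison at the same sites came from the 14 regions with a peak in all 4 lines, out of 352 merged regions of the stretch (3.98%, beside 3.81% of all regions). In SMC#1 their height over the mean of the non-SMC lines had a median log2 difference of 4.41, 21.3-fold, and was above 0 at 14 of 14 regions. The median over 13593 such regions of the rest of the genome was 0.09. The log2 difference in fold enrichment at the same 14 regions had a median of 0.11, beside -0.25 on the rest. Without the added 1 this median was -0.54, beside 0.14 on the rest. The excess of SMC#1 at these sites was thus in height, and the sign of its median difference over the local background depended on the added 1. Height carries the background ratio by which the stretch was chosen, so this excess is no separate result.

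SMC#2 divided by place. At the 6 shared regions of the span raised in both lines its median log2 height over the non-SMC mean was 4.06, 16.7-fold, with a range of 2.77 to 5.58. At the 3 shared regions in the left part raised in SMC#1 alone it was -0.53, and at the 4 in the right part -0.41, beside -0.63 on the rest of the genome. SMC#1 had 5.05, 4.56 and 4.13 at these 3 sets of regions. The single shared region to the right of both runs, in a Macf1 exon, gave 0.49 for SMC#1 and -0.74 for SMC#2. The height thus changed at the edges of each line's own run. The runs were set by the background ratio, which is part of the height, so this change restates the runs.

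**Figure D4:**
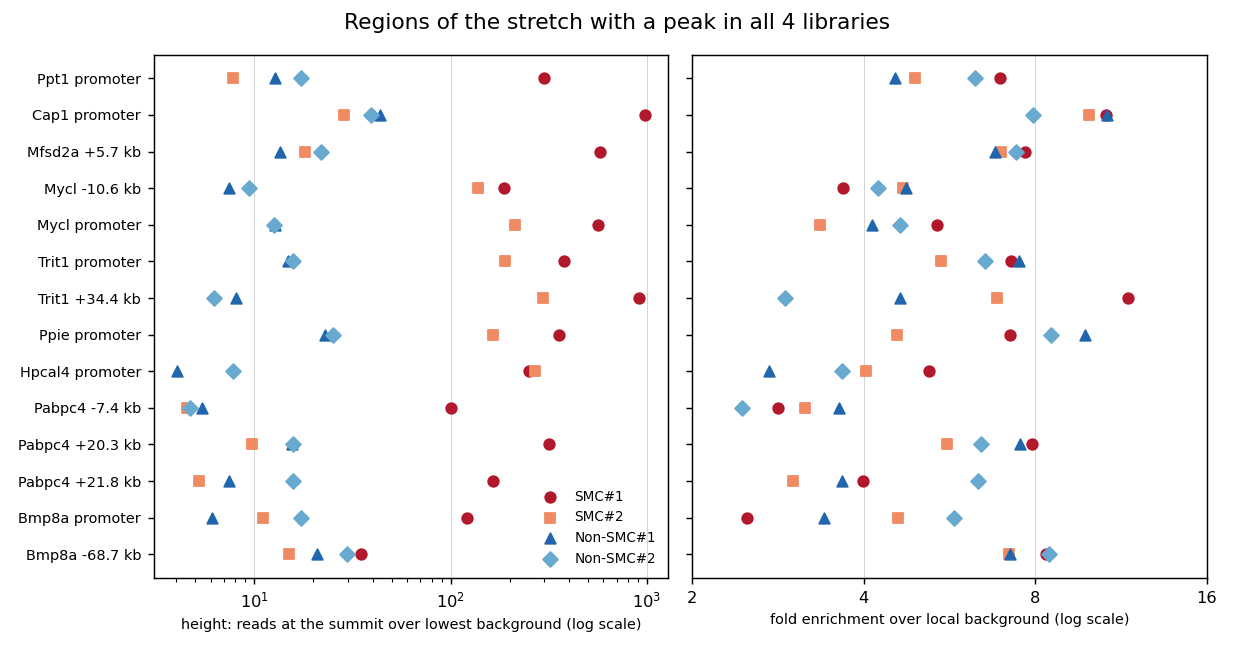
The 14 regions with a peak in all 4 libraries, from left to right along the chromosome (top to bottom), named by the nearest gene start and, away from promoters, the distance to it; left, height (x axis, log scale), right, fold enrichment over the local background (x axis, log scale), with 1 point per library. SMC#1 stands apart in height at 13 regions and SMC#2 at the 6 regions from Mycl -10.6 kb to the Hpcal4 promoter, while fold enrichments overlap between the types at most regions.

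At single sites the ratios over the local background were less uniform than the heights. The Trit1 intron site printed above, 34.5 kb after the gene's start, had the highest log2 difference in fold enrichment of the 14 shared regions in both SMC lines. Its fold enrichment was 11.6 in SMC#1 and 6.86 in SMC#2, against 4.63 and 2.90 in non-SMC lines 1 and 2. Its height was 907 and 295, against 8.08 and 6.26. In SMC#1 it was the highest fold enrichment of the 231 members. The log2 difference in fold enrichment from the non-SMC mean was 1.67 for SMC#1 and 0.90 for SMC#2. Without the added 1 the ratios were 11.9, 6.95, 6.65 and 5.54, and the log2 differences 0.98 and 0.20, so SMC#2 was nearly level with Non-SMC#1 there.

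The 5 highest fold enrichments of each list named further sites. In SMC#1 the Trit1 intron site and the Cap1 promoter were followed by an intergenic site 33.4 kb from the Bmp8b start at 9.35, a Macf1 exon at 8.36 and a Pabpc4 intron at 7.90. In SMC#2 the first were the Cap1 promoter at 9.94, an intergenic site 34.5 kb from the Mfsd2a start at 8.30, a Macf1 exon at 7.19 and a Mfsd2a intron at 6.96, all outside its raised run, before the Trit1 intron site. In Non-SMC#1 the highest was the Ppt1 site printed above, 2.37 kb after the gene's start, with 14.2. The same site had 7.13 in Non-SMC#2, 2.27 in SMC#1 and no peak in SMC#2. Its height was 42.4 and 20.3 in the non-SMC lines and 92.1 in SMC#1, so there the order by height was not the order by fold enrichment. After it in Non-SMC#1 came a Macf1 intron site 79.8 kb from the Bmp8a start at 12.6, the Cap1 promoter, a Macf1 intron site 246 kb from the Bmp8a start at 9.89 and the Ppie promoter. In Non-SMC#2 the highest was the latter Macf1 intron site at 8.54, followed by the Ppie promoter, the Macf1 exon at 8.46, the former Macf1 intron site at 8.14 and the Cap1 promoter. Macf1, which encodes a linker of actin and microtubules, thus gave members to all 4 sets of highest peaks.

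Merged regions with a peak in SMC#1 and SMC#2 but in no non-SMC line numbered 64 of 352 (18.2%), beside 4.37% of all regions, and the opposite pattern 7 (1.99%), beside 7.33%. Of the 64, 50 lay in the span raised in both lines, where they made up 31.8% of 157 regions. There their median fold enrichment was 2.03 in SMC#1 and 1.79 in SMC#2. By place, 9 of the 64 lay at promoters, 4 in exons, 21 in introns and 30 between genes. This split was not computed for the regions of this pattern in the rest of the genome. A further 116 regions had a peak in SMC#1 alone (33.0%, beside 13.1% of all regions) and 77 in SMC#2 alone (21.9%, beside 28.4%). For Non-SMC#1 alone and Non-SMC#2 alone the counts were 14 (3.98%, beside 15.6%) and 22 (6.25%, beside 19.7%).

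Few of the 64 regions were strong in both SMC lines. Ranked after their values were seen by the lower of both fold enrichments, the first was the intergenic site 34.5 kb from the Mfsd2a start with 4.99 and 8.30. The next were Macf1 intron sites to the right of both runs, with 4.81 and 6.70 and with 3.54 and 6.06, on background ratios of 1.00 to 1.52. The strongest inside the span raised in both lines was a site 2.12 kb before the Trit1 start, with 4.04 and 2.64 on ratios of 50.5 and 36.7. The 7 regions of the opposite pattern had a median fold enrichment of 5.66 in Non-SMC#1 and 5.49 in Non-SMC#2, and 6 of them lay in introns, 4 of these in Macf1 to the right of both runs.

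In the span raised in both SMC lines the overlap of their peaks was set against the rest of each list. Of the peaks of SMC#1 there, 73 of 90 (81.1%) overlapped a peak of SMC#2, against 39.3% on the rest of its list. Of the peaks of SMC#2 there, 70 of 138 (50.7%) overlapped a peak of SMC#1, against 22.8%. Peaks covered more of this span than of its surroundings in both SMC lines, and the part of coverage in the overlap was not tested. With either non-SMC line, 17.7% of the members of SMC#1 and 20.1% of those of SMC#2 overlapped, against 30.1% and 23.4% on the rest of the lists. The other direction was reversed. Of the members of Non-SMC#1 and Non-SMC#2, 65.6% and 56.1% overlapped a peak of either SMC line, against 28.4% and 23.3% on the rest. The SMC lines held more peaks in the stretch, and the part of this in the overlap was not tested.

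By annotation, 13.4% of the members of SMC#1 and 19.6% of SMC#2 lay at promoters, against 32.8% and 22.7% in non-SMC lines 1 and 2. The rest of the lists had 20.4%, 14.5%, 16.9% and 14.6%, so SMC#1 alone was below its own list. The shares between genes were 39.4%, 42.9%, 18.0% and 24.2%. They were not computed for the rest of the lists, so whether the lists differ in the same way is not known here. Within 100 bases of the summit, TGACTCA was found in 3.90% and 5.43% of the members of the SMC lines and in 24.6% and 13.6% of those of the non-SMC lines. The rest of the lists had 4.58%, 4.84%, 23.4% and 18.1%, so the order of the types was also that of the lists. CACGTG was found in 3.90%, 3.26%, 6.56% and 3.03% of the members and in 4.07%, 3.91%, 3.74% and 3.56% of the rest. GGAATG was found in 16.5%, 13.0%, 13.1% and 16.7% of the members against 10.3%, 10.6%, 15.0% and 13.6% of the rest. CAGCTG was found in 17.7%, 16.8%, 21.3% and 19.7% of the members against 15.9%, 14.8%, 13.4% and 12.7% of the rest, a larger share of the members in each of the 4 lists.

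The rest of the MYC and MAX network had no comparable background. Of 12 genes (Myc, Mycn, Max, Mxd1, Mxi1, Mxd3, Mxd4, Mnt, Mga, Mlx, Mlxip and Mlxipl), a promoter peak was present for 11, 12, 11 and 12 in the 4 lines. The highest background ratios at their best promoter peaks were 7.09 and 5.44 in the SMC lines and 10.4 and 8.77 in the non-SMC lines. At Myc the ratios were 3.58, 2.42, 5.84 and 4.64. At Mycn they were 2.33 and 1.83 in the SMC lines and 1.04 in Non-SMC#2, with no promoter peak in Non-SMC#1. Among the 3 MYC family genes, a ratio above 50 was seen at Mycl in the SMC lines and at neither Myc nor Mycn in any line. Mycl lies in the stretch chosen for its background, so this contrast was set by that choice. Ratios above 50 were not limited to Mycl within the stretch. They reached 89.7 at the Cap1 promoter in SMC#1 and 82.3 in a Hpcal4 intron in SMC#2.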

How the data were processed

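ATAC-seq was measured in 4 cultured mouse tumor lines. Per the labels, the authors aligned reads to mm10 with Bowtie2 (2.3.4) and called peaks in each library with MACS2 (2.1.1); the calling settings are not given in the sources used here. The deposited lists hold, for each peak, its position, a display score, a fold enrichment (a ratio over the local background), a −log10 p-value, a −log10 q-value and the summit. The score was not used. Reads were not analysed here. Of the chosen markers and sequences, 1 gene and 1 promoter sequence are not reported here.

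Analysed peaks lie on the autosomes, X or Y and number 91057 to 153954 per list. MACS2 adds 1 to pileup and background before the fold enrichment, so the whole-number pileup and the background of each peak were solved from its fold enrichment and Poisson p-value, to within 0.001 of the −log10 p. This was possible for all but 1 or 2 peaks per list and for all members. On simulated data 100% of 19970 peaks were recovered within 1%, and 5000 simulated overlaps gave 0 differences from bedtools (2.31.1). Computation used scipy (1.17.1), pandas (2.3.3), numpy (2.4.6) and matplotlib (3.10.9) in Python (3.11.15).

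Genes are those of GENCODE M21 on the same build. Regions are peaks of the 4 lists merged where they share at least 1 base. Means and SDs are over 2 lines per type, and no test was made. Named are all genes that overlap the stretch, the 5 members of highest fold enrichment per list, and Myc and Mycn of the network; other network and marker genes are named as lists. The stretch, its members and the lists were chosen with earlier results of these data known. As alternatives, equal list lengths, other reference sets, thresholds, overlaps and windows, a minimum −log10 q of 5 and each line left out were tried. The ratio without the added 1 and the differences between same-numbered lines were added after the data were seen.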

Additional observations from a re-analysis of the deposited data

How the results depend on the processing

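Under the alternatives run, the run lengths were 519 to 600 kb in SMC#1 and 224 to 300 kb in SMC#2. The number of genes with a promoter peak in SMC lines alone was 2 to 4. The log2 difference in relative density of 1.75 kept its direction but not its size. It was 1.20 without SMC#1 and 2.29 without SMC#2, 1.34 against the rest of chromosome 4 and 2.14 with equal list lengths. The log2 difference in background ratio of 4.76 was 2.73 as the median of 10 kb bins and 4.12 as a mean, and 4.61 to 4.92 with each line left out. The log2 difference in fold enrichment of -0.84 was -1.12 with a −log10 q of at least 5 and -0.68 against the rest of chromosome 4. It was -1.52 without the 1 that MACS2 adds, an alternative chosen after seeing the data. The 64 regions of SMC lines alone became 12 with a −log10 q of at least 5, and 70 to 180 with each line left out, the most without SMC#2 (180) and 141 without SMC#1. The cause of these shifts was not tested, except that fewer lines must carry or lack a peak when a line is left out. The opposite pattern numbered 6 with a −log10 q of at least 5, and 29 and 21 without non-SMC lines 1 and 2. The labels do not say which lines share an animal, and the pairing of same-numbered lines was added after seeing the data. With the replicate number as a block, the log2 differences of lines 1 and lines 2 were 2.27 and 1.22 in density, 4.86 and 4.67 in background ratio and -0.92 and -0.76 in fold enrichment. Their means, 1.75, 4.76 and -0.84, equal the differences without the block by construction.

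Depth and copy number are not in the lists, an edge is placed only to the gap between neighboring peaks, and 2 lines per type set the spread.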
